A study of Homo sapiens with 8 samples.

Results

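Transcripts of 35 pre-mRNA splicing factors were followed in leukaemia cells given a WDR5 inhibitor: 10 SR proteins, 16 heterogeneous nuclear ribonucleoproteins (hnRNPs) and 9 subunits of SF3a, SF3b and U2AF. The genes were chosen by name, and each was read from the probe set annotated with its symbol, the one with the highest mean where there were several. By this rule 32 of the 35 were found among the 17687 genes named on the array: 9 SR proteins, 14 hnRNPs and all 9 SF3 and U2AF subunits. SRSF2, HNRNPA3 and HNRNPK had no probe set under their symbol and are not analysed here. U2AF1 was the only one with more than 1 probe set.

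The cells were CCRF-CEM, an established line of T-lymphoblasts from a human acute leukaemia (T-ALL). In the treated group they received 1 µM OICR-9429, a small molecule that blocks the WDR5 pocket used by MLL-family histone methyltransferases, for 1 h, and were then embedded for 1 h in a gel of bovine type I collagen at 1.7 mg/mL. Cells of the untreated group went into the same gel without the compound, and the labels mention no solvent control. Total RNA of 4 biological replicates per group, numbered 1 to 4 in both, was measured on Affymetrix whole-transcript arrays, and the labels do not say whether replicates were separate cultures, so p-values describe the spread between these samples. All groups share the line and the gel, and no culture outside the gel was part of the comparison.

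SR proteins carry RNA recognition motifs and a domain rich in arginine and serine, bind exonic enhancers and help to define exons once kinases of the CLK and SRPK families have phosphorylated them. Many hnRNPs coat nascent transcripts and often oppose SR proteins at weak exons. U2AF reads the polypyrimidine tract and the AG at the end of an intron, and SF3a and SF3b, as parts of the U2 small nuclear ribonucleoprotein (snRNP), hold the branch point. SF3B1, U2AF1 and SRSF2 are recurrently mutated in blood cancers, and many genes of these families limit their own output through exons that send the transcript to nonsense-mediated decay.

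Deposited values are on the log2 scale, 1 per probe set and array. They rank arrays for a gene but do not compare one gene's abundance with another's. Array medians ran from 6.38 to 6.46. Upper quartiles were 8.08 (untreated) and 8.12 (treated) for replicate 4, against 8.29 to 8.40 on the other arrays. Lower quartiles were 4.69 and 4.68 for replicate 4, against 4.52 to 4.66, so both replicate 4 arrays had the narrower middle range. Same-numbered untreated and treated arrays deviated together from their group means, with correlations across probe sets of 0.566 to 0.865, so each replicate number was taken as a pair, and the fit with that number as a block (the replicate block) is given where it bears on a result. Members had mean levels between 9.305 and 12.65. Of the T-cell markers, 22 of 23 had a probe set, among them CD3E at 11.82 ± 0.13 (SD, n = 4) and CD3D at 11.32 ± 0.29 (SD, n = 4) in untreated cells. These 2 are at the bright end, as mean levels of the 22 over all arrays ran from 6.08 to 11.8. No detection call was used, so dim markers could not be called present or absent, and in bulk RNA fewer cells of a kind and less RNA per cell cannot be told apart.

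None of the splicing factor transcripts differed past the threshold when inhibitor-treated cells were set against untreated ones. In the limma fit 0 of the 32 members passed an adjusted p of 0.05, as did 0% of all 21448 probe sets, and 0 had an unadjusted p under 0.05, against 0.49% of all probe sets. With the replicate block 0 passed again and 0 had an unadjusted p under 0.05, where all probe sets gave 5.55%. Of the 2652 probe sets at or above the lowest member's mean level (the bright ones), 6 were under 0.05 with the block and 0 without. The members' count of 0 is therefore near that of probe sets at their level. Differences, treated minus untreated on the log2 scale, ran from -0.10 (SF3A2) to 0.15 (HNRNPA0). The median was 0.05 for SR proteins, 0.05 for hnRNPs and -0.0025 for SF3 and U2AF, beside 0.005 for all probe sets. In no member did the 4 treated arrays lie apart from the 4 untreated ones, which happened in 0.737% of all probe sets and in 0 of the 2652 bright ones.

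**Figure D1:**
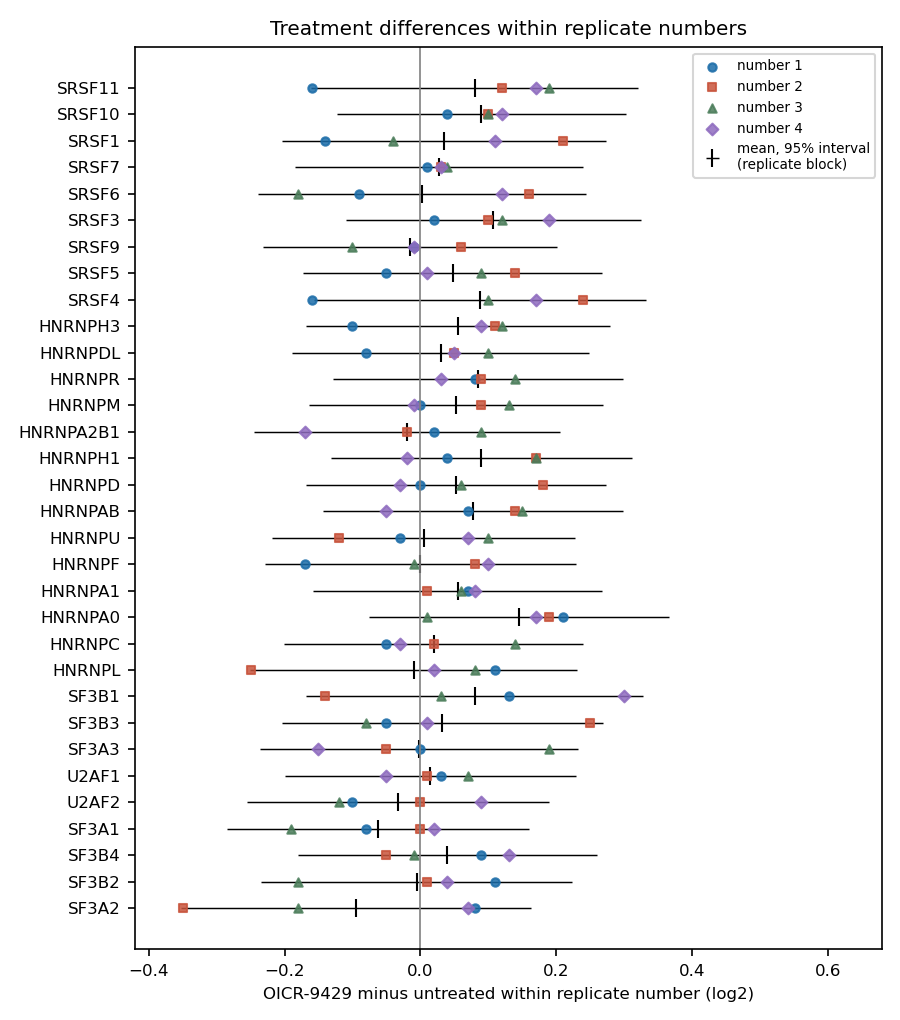
Treated minus untreated log2 difference of each member within replicate numbers 1 to 4 (coloured symbols), with the mean of the 4 as a black tick and its 95% interval from the fit with the replicate block. The symbols fall on both sides of 0 for most members, and the intervals span 0 for all 32.

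HNRNPA0, an hnRNP that binds AU-rich elements, came nearest to the threshold. It measured 9.75, 9.69, 9.92 and 9.67 in untreated replicates 1 to 4 and 9.96, 9.88, 9.93 and 9.84 in the treated ones. Every treated array was above its untreated partner, but treated replicate 4 lay below untreated replicate 3, so the groups overlapped. The difference was 0.15 ± 0.14 (SE), and 0.15 ± 0.10 (SE) with the replicate block (limma, adjusted p = 0.848, unadjusted p = 0.169). SRSF3, SRSF7, SRSF10, HNRNPA1 and HNRNPR were also higher in 4 of 4 pairs, which makes 6 of 32 members with 1 sign in all pairs, beside 12.6% of all probe sets.

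SRSF3, the smallest SR protein and a factor that also promotes mRNA export, measured 10.86, 10.70, 10.94 and 10.23 in untreated and 10.88, 10.80, 11.06 and 10.42 in treated replicates 1 to 4. Its difference was 0.11 ± 0.09 (SE, replicate block; limma, adjusted p = 0.876). HNRNPA1, a classical opponent of SRSF1 at exonic silencers, measured 12.51, 12.76, 12.74 and 12.48 untreated and 12.58, 12.77, 12.80 and 12.56 treated. For both genes number 4 was lowest in either group, and the range over numbers was wider than any difference within a pair.

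The data bound the size of a treatment difference in these transcripts. With the replicate block the 95% intervals of all 32 members lay between -0.35 and 0.37, inside 1.5-fold in either direction. Intervals of 19448 of all 21448 probe sets and of 2646 of the 2652 bright ones also lay inside 1.5-fold. Without the block the median SE of a member was 0.25 in place of 0.096, and the intervals of 30 members lay inside 2-fold. SRSF10 and SRSF11 were the exceptions. Inside 2-fold lay 19191 of all 21448 probe sets and 2437 of the 2652 bright ones, so these bounds are not particular to the members. Group medians of the difference within pairs 1 to 4 were -0.05, 0.12, 0.09 and 0.12 for SR proteins, 0.01, 0.085, 0.10 and 0.025 for hnRNPs, and 0.03, 0, -0.08 and 0.04 for SF3 and U2AF. These medians did not share a sign across pairs for SR proteins or for SF3 and U2AF, and leaving out single arrays of the unpaired fit moved all 3 through 0.

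The splicing factors differed between replicate numbers instead. In a limma model with number and treatment, 25 of 32 members passed the test of any difference between numbers. The same test passed 50.3% of all probe sets. Among the 2652 probe sets at or above the lowest member's mean level it passed 1896, a share not far below that of the members. Without number 4 the count was 4 of 32 members, beside 13.9% of all probe sets. Each number holds 1 untreated and 1 treated array, taken as a pair from their correlated deviations and not from the labels. These tests therefore rest on how steady the treatment difference is over numbers, not on separate cultures of a number. At number 4, set against the mean of numbers 1 to 3, 22 members were lower and 3 higher, where 25.5% of all probe sets were lower and 26.3% higher. The median difference was -0.63 for SR proteins, -0.69 for hnRNPs and -0.16 for SF3 and U2AF, beside 0.08 for all probe sets, and the SF3 and U2AF median turned to 0.014 with quantile and to 0.10 with cyclic loess normalization. That the splicing genes as a whole are low on an array of number 4 was known when the members were chosen, so their number 4 counts describe these arrays and are no separate evidence.

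**Figure D2:**
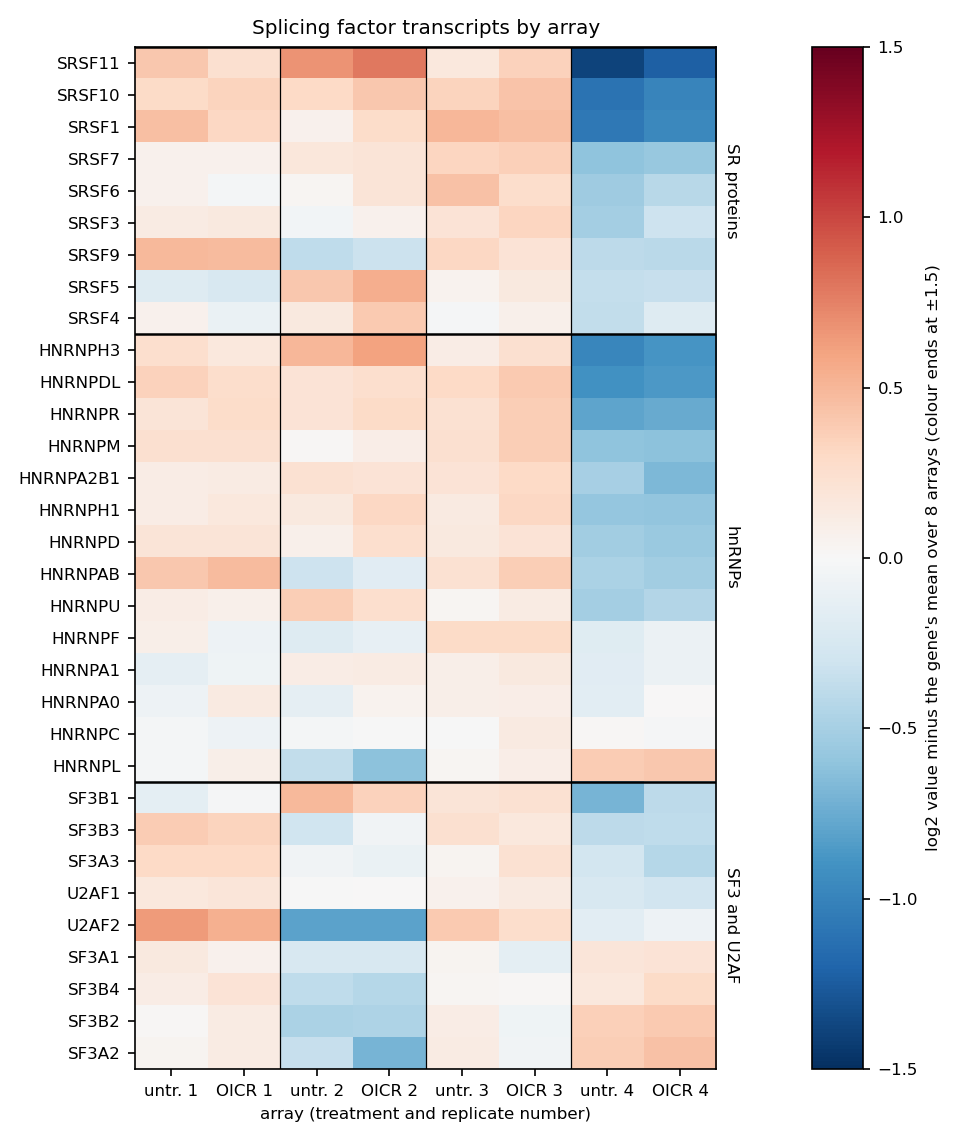
Deviation of each of the 32 members (rows) from its own mean over the 8 arrays, in log2 units, with arrays ordered by replicate number and the untreated array left of the treated one (OICR). Both arrays of number 4 are blue for all SR proteins and most hnRNPs and red for HNRNPL, SF3A1, SF3A2, SF3B2 and SF3B4.

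Level and the number 4 difference were related across the array. Across all probe sets, the number 4 difference correlated with mean level at -0.232, a description in which genes share the same 8 arrays. Among the 2652 probe sets at or above the lowest member's mean level, 44% were lower and 22.1% higher at number 4, with a median of -0.21. Against that, 9 of 9 SR proteins, 9 of 14 hnRNPs and 4 of 9 SF3 and U2AF subunits were lower. The share for SF3 and U2AF is near that of bright probe sets in general. Cyclic loess normalization, which removes trends with level between arrays, left 16 members lower and 5 higher (6 SR proteins, 9 hnRNPs and 1 SF3 subunit lower), so that 76.2% of the calls were lower in place of 88%. Under that scaling 24.6% of all probe sets were lower and 23.2% higher.

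**Figure D3:**
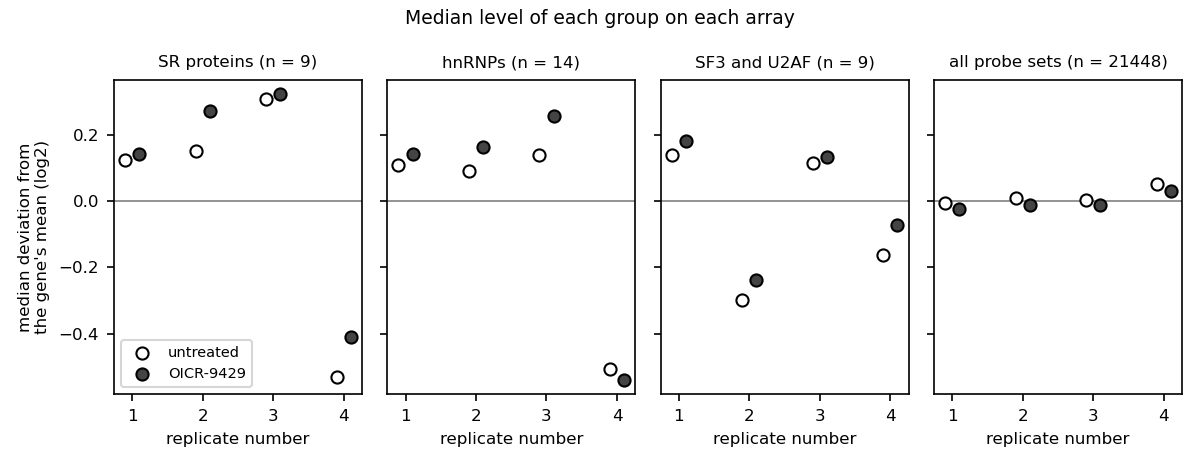
Median over the genes of each group of the deviation from each gene's own mean (log2), for every array, with open points for untreated and filled points for OICR-9429 arrays. SR proteins and hnRNPs sit between -0.54 and -0.41 on the number 4 arrays and above 0 on the other 6, SF3 and U2AF are lowest at number 2, and all probe sets stay near 0.

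All 9 SR proteins were lower at number 4, and in all 9 both arrays of number 4 lay below the other 6 arrays. So did those of 9 hnRNPs and 4 SF3 and U2AF subunits (24.2% of all probe sets and 1162 of the 2652 bright ones). Both lay above the other 6 in 1 hnRNP and 3 SF3 subunits (25.4% of all probe sets and 598 of the 2652 bright ones). SRSF11, an SR protein that contacts U2AF, measured 10.42, 10.69, 10.18 and 8.63 in untreated and 10.26, 10.81, 10.37 and 8.80 in treated replicates 1 to 4. Its number 4 arrays were lower by 1.74 ± 0.12 (SE) on the log2 scale, a 3.34-fold difference (limma, adjusted p = 4.06e-05). Number 2 was its high point, by 0.97 ± 0.12 (SE; limma, adjusted p = 0.00171), though this call was lost without number 4 (adjusted p = 0.0589). SRSF10, which acts as a splicing repressor when dephosphorylated, measured 10.51, 10.52, 10.55 and 9.11 untreated and 10.55, 10.62, 10.65 and 9.23 treated. The other 6 arrays lay between 10.51 and 10.65, and the number 4 pair was 2.63-fold lower (limma, adjusted p = 4.97e-05).

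SRSF1, the founding SR protein and a proto-oncogene product, measured 11.85, 11.46, 11.89 and 10.32 untreated and 11.71, 11.67, 11.85 and 10.43 treated. Number 4 was lower by 1.36 ± 0.12 (SE), or 2.57-fold (limma, adjusted p = 8.36e-05). SRSF7, SRSF6, SRSF3, SRSF9 and SRSF5, among them the shuttling export adaptors SRSF3 and SRSF7, had number 4 differences between -0.78 and -0.47. The SRSF9 call was lost without number 1 (adjusted p = 0.0529) and the SRSF5 call without number 2 (adjusted p = 0.0767). SRSF4 had the smallest difference. It measured 10.90, 10.99, 10.82 and 10.47 untreated and 10.74, 11.23, 10.92 and 10.64 treated, a number 4 difference of -0.38 ± 0.12 (SE; limma, adjusted p = 0.0316). That call was lost with quantile normalization (adjusted p = 0.0962), with cyclic loess (adjusted p = 0.331), without number 2 (adjusted p = 0.104) and without number 3 (adjusted p = 0.0542).

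**Figure D4:**
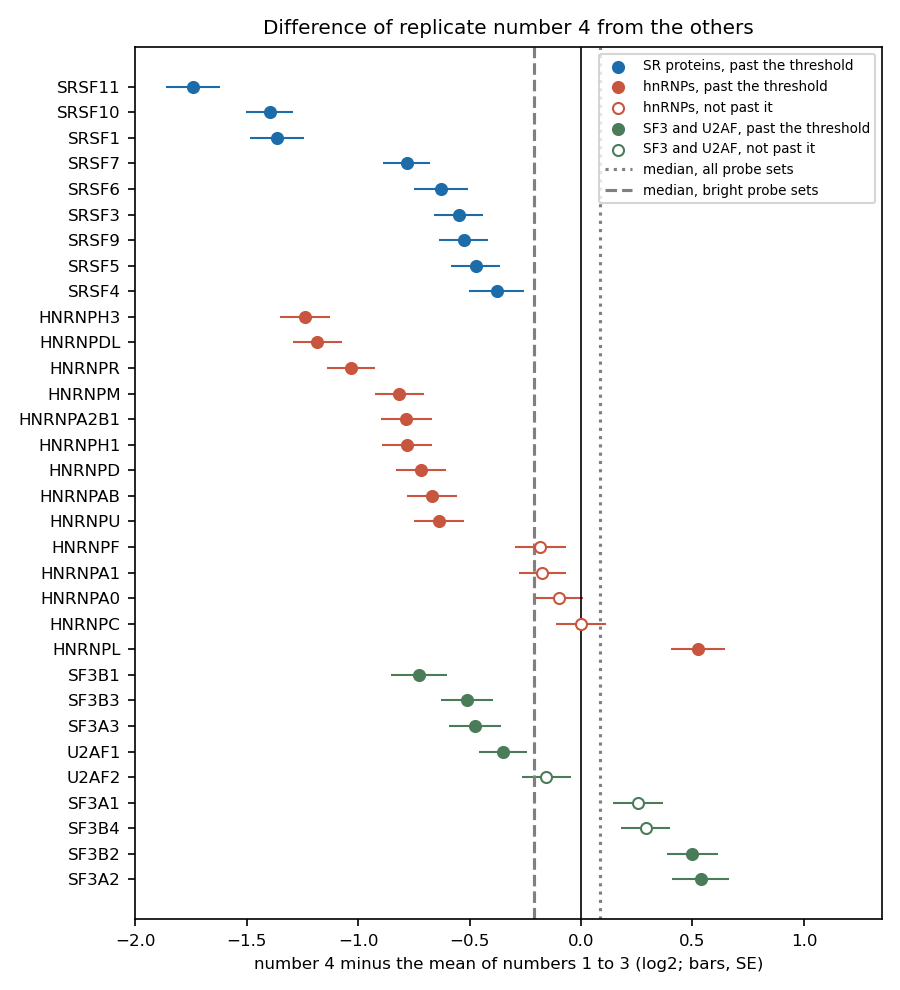
Number 4 minus the mean of numbers 1 to 3 (log2) for each member, with SE bars; filled points passed an adjusted p of 0.05 and open points did not. The dotted line is the median of all probe sets (0.08) and the dashed line that of the 2652 bright probe sets (-0.21); SRSF11 lies farthest left at -1.74 and SF3A2 farthest right at 0.54.

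Of the 14 hnRNPs, 9 were lower at number 4, 1 was higher and 4 did not pass. HNRNPH3, a relative of the G-tract binding proteins HNRNPH1 and HNRNPF, measured 11.42, 11.66, 11.28 and 10.19 in untreated and 11.32, 11.77, 11.40 and 10.28 in treated replicates 1 to 4, and was 2.36-fold lower at number 4 (limma, adjusted p = 9.42e-05). HNRNPDL, a close relative of the AU-rich element binding protein HNRNPD, measured 11.66, 11.52, 11.61 and 10.40 untreated and 11.58, 11.57, 11.71 and 10.45 treated, 2.27-fold lower at number 4 (limma, adjusted p = 0.000102). HNRNPR measured 11.10, 11.11, 11.14 and 10.12 untreated and 11.18, 11.20, 11.28 and 10.15 treated, 2.05-fold lower (limma, adjusted p = 0.000165). In these 3 genes the number 4 arrays stood about a full log2 unit under the rest, whichever group they came from.

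HNRNPH1, which binds runs of G, measured 11.67, 11.70, 11.69 and 10.98 untreated and 11.71, 11.87, 11.86 and 10.96 treated, a number 4 difference of -0.78 ± 0.11 (SE). HNRNPM, HNRNPA2B1, HNRNPD, HNRNPAB and the nuclear scaffold protein HNRNPU were lower by differences between -0.82 and -0.64. Relatives of these genes had values nearer 0, a gap that was not tested between genes. HNRNPF, also a G-tract binder, stood at -0.18 ± 0.11 (SE; limma, adjusted p = 0.213), HNRNPA1 at -0.17 ± 0.11 (SE; adjusted p = 0.206) and HNRNPA0 at -0.10 ± 0.11 (SE; adjusted p = 0.478), and those 3 did not pass. HNRNPA1 did pass with trend and robust variance (adjusted p = 0.00497) and with quantile normalization (adjusted p = 0.0459), and HNRNPA0 turned to 0.087 and 0.16 with quantile and cyclic loess normalization.

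HNRNPC and HNRNPL had the highest number 4 values of the hnRNPs. HNRNPC, which binds uridine tracts and competes with U2AF2 for them, measured 12.28, 12.28, 12.30 and 12.32 untreated and 12.23, 12.30, 12.44 and 12.29 treated, so that number 4 and the mean of the others were equal (0 ± 0.11, SE). HNRNPL, which binds CA repeats and represses CD45 exons in T cells, was the one hnRNP above the others at number 4, at 9.94 untreated and 9.96 treated against 8.94 to 9.66 on the other 6 arrays, a difference of 0.53 ± 0.12 (SE; limma, adjusted p = 0.0072), or 0.35 without number 2 (adjusted p = 0.0444). It was lowest at number 2, by -0.65 ± 0.12 (SE; limma, adjusted p = 0.00637), and that call held without number 4 (-0.54, adjusted p = 0.033).

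Subunits of one SF3 complex had number 4 differences of both signs. In SF3a, SF3A3 was lower at number 4 (-0.48 ± 0.12, SE; limma, adjusted p = 0.0101, and 0.0516 without number 1), SF3A2 higher (0.54 ± 0.13, SE; adjusted p = 0.00893), and SF3A1 stood at 0.26 (adjusted p = 0.0878). The SF3A3 call was also lost with quantile and with cyclic loess normalization. SF3A2 measured 10.87, 10.49, 10.96 and 11.20 in untreated and 10.95, 10.14, 10.78 and 11.27 in treated replicates 1 to 4, highest at number 4 and lowest at number 2 in both groups. On the same array SF3A2 exceeded SF3A3 by 1.26 and 1.48 at number 4 and by 0.02 to 0.70 elsewhere, which shows unequal change of the 2 probe sets and not their relative abundance. Without number 2 the SF3A2 call was lost (adjusted p = 0.0578).

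SF3b showed both signs too. SF3B1, the scaffold that clamps the branch point helix, measured 9.34, 9.97, 9.68 and 8.79 untreated and 9.47, 9.83, 9.71 and 9.09 treated, a number 4 difference of -0.73 ± 0.12 (SE; limma, adjusted p = 0.00175). SF3B3, its beta-propeller partner, measured 10.53, 9.85, 10.39 and 9.76 untreated and 10.48, 10.10, 10.31 and 9.77 treated, a difference of -0.51 ± 0.12 (SE; adjusted p = 0.00752, and 0.103 with cyclic loess). SF3B2 was higher by 0.50 ± 0.11 (SE; limma, adjusted p = 0.0072, and 0.0688 without number 2), and SF3B4, an RNA recognition motif protein that contacts SF3B2, stood at 0.29 ± 0.11 (SE; adjusted p = 0.0563). Without number 1 SF3B4 stood at 0.41 (adjusted p = 0.0337), without number 2 at 0.13 (adjusted p = 0.409) and without number 3 at 0.34 (adjusted p = 0.0739). SF3B2 minus SF3B1 on the same array was 0.87 and 0.61 at number 4 and between -1.14 and -0.02 elsewhere. At number 2 the order was turned: SF3B1 was its highest (0.55, adjusted p = 0.0137) and SF3B2 and SF3B4 were lower (-0.63, adjusted p = 0.00612, and -0.54, adjusted p = 0.00958). Without number 4, SF3B2 (adjusted p = 0.0316) and SF3B4 (adjusted p = 0.0309) kept that call and SF3B1 did not (adjusted p = 0.102).

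Within the U2AF heterodimer, the large subunit was lower at number 2 and higher at number 1. U2AF2, which binds the polypyrimidine tract, measured 10.78, 9.34, 10.53 and 9.98 in untreated and 10.68, 9.34, 10.41 and 10.07 in treated replicates 1 to 4. Number 2 was lower than the other numbers by 1.07 ± 0.11 (SE) on the log2 scale (limma, adjusted p = 0.00131), and without number 4 by 1.26 ± 0.12 (SE; adjusted p = 0.00323). Number 1 was higher by 0.79 ± 0.11 (SE; adjusted p = 0.00485), and without number 4 by 0.83 ± 0.12 (SE; adjusted p = 0.00842). U2AF1, the small subunit that reads the AG, measured 11.26, 11.10, 11.17 and 10.87 untreated and 11.29, 11.11, 11.24 and 10.82 treated, with no difference past the threshold at number 2. At number 4 U2AF1 was lower by 0.35 ± 0.11 (SE; adjusted p = 0.0256), a call lost with quantile normalization (adjusted p = 0.0526), with cyclic loess (adjusted p = 0.325), without number 1 (adjusted p = 0.0741) and without number 3 (adjusted p = 0.0665), and its dimmer probe set stood at -0.29 ± 0.12 (SE; adjusted p = 0.0703). U2AF2 at number 4 was -0.16 (adjusted p = 0.275), and 0.014 and 0.10 with the quantile and loess scalings; without number 2 it was lower by 0.58 (adjusted p = 0.00809).

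Among numbers 1 to 3 the differences were fewer. Against all other numbers, 8 members were higher and 0 lower at number 1 (10.6% and 6.14% of all probe sets), 6 were higher and 6 lower at number 2 (15.4% and 11.6%) and 0 passed at number 3 (1.18% and 0.2%). Of the 2652 bright probe sets, 494 were higher and 156 lower at number 1, 615 and 574 at number 2, and 34 and 4 at number 3. The members' counts at number 2 are thus not above the share of bright probe sets. In all these counts number 4 is among the numbers set against. Without it, 2 members were higher and 1 lower at number 1 (5.85% and 4.32% of all probe sets), 1 was higher and 7 lower at number 2 (7.2% and 7.86%), and 0 at number 3 (0.681% and 0.2%). The 7 lower at number 2 were U2AF2, SRSF9, HNRNPAB, SF3A2, HNRNPL, SF3B2 and SF3B4, and the one higher was SRSF5. SRSF5 and SRSF9 were mirror images over these numbers: SRSF5 measured 11.57, 12.16 and 11.81 in untreated replicates 1 to 3, while SRSF9 measured 9.81, 8.94 and 9.63. SRSF5 exceeded SRSF9 by 3.22 and 3.30 on the number 2 arrays and by 1.72 to 2.49 on the other 6, again a statement on unequal change only.

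Promoters are shown for the member with the lowest and the one with the highest number 4 difference in each group, since these 6 genes mark the ends of the range. Each line gives the 250 bases before the most upstream RefSeq start (GRCh38.p14), 5′ to 3′ on the gene's strand, with motif matches in capitals.
SRSF11, chr1:70205446-70205695, plus strand: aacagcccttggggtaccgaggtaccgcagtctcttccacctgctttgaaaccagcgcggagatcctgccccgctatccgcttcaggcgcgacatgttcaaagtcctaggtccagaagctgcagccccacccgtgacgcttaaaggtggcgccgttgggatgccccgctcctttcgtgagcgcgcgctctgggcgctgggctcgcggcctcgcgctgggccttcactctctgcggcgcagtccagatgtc
SRSF4, chr1:29181901-29182150, minus strand: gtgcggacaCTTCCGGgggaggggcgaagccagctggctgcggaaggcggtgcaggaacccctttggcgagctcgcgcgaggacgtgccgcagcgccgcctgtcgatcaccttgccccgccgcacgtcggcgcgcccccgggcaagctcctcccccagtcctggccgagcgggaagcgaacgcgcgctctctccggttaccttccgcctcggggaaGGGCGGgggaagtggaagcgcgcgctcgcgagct
HNRNPH3, chr10:68331443-68331692, plus strand: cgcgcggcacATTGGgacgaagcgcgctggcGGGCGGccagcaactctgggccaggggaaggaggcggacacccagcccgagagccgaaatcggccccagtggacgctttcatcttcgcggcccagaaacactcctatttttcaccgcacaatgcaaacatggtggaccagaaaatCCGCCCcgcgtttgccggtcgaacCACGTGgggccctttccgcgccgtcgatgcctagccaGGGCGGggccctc
HNRNPL, chr19:38852348-38852597, minus strand: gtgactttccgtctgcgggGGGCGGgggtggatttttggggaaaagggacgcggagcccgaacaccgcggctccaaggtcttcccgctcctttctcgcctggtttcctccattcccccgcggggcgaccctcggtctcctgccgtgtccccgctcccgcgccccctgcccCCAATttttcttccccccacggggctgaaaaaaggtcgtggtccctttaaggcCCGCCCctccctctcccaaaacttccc
SF3B1, chr2:197435094-197435343, minus strand: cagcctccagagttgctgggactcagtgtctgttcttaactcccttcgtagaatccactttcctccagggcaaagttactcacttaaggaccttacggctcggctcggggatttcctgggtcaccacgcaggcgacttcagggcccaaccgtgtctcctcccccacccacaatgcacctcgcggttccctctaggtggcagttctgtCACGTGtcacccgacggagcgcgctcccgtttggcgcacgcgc
SF3A2, chr19:2236574-2236823, plus strand: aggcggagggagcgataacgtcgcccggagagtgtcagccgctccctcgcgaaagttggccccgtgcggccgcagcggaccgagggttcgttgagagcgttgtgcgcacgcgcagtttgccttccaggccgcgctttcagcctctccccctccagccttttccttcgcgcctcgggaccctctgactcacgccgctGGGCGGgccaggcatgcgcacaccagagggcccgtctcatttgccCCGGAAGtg
Motifs were searched as letters on both strands: CCGGAAG (ETS factors), CGCATGCG (NRF1), AAGATGGCG (YY1), CACGTG (the E-box of MYC and MAX), CCAAT (NF-Y), GGGCGG (SP factors), TGACGTCA (CREB) and TATAAA (bound by TBP), and no matches overlapped in the 6 sequences.

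RefSeq promoters matched 30 of the 32 measured members (not HNRNPA1 and SF3B3). CCGGAAG was found in 6 of 8 SF3 and U2AF promoters, 2 of 9 SR and 2 of 13 hnRNP promoters, and in 8.78% of all 27305 promoters of this length. CCAAT was found in 10 of 13 hnRNP promoters, 1 of 9 SR promoters and 0 of 8 SF3 and U2AF promoters, against 33.0% of all promoters. CACGTG was present in 4 hnRNP promoters, those of HNRNPD, HNRNPDL, HNRNPH3 and HNRNPM, and in that of SF3B1, against 6.46% of all. These 5 genes were all lower at number 4, as were 22 of the 32 members and 9 of the 14 hnRNPs. A link between motif and difference was not tested. Promoters with CCGGAAG belonged to genes that were higher at number 4 (SF3A2, SF3B2) and lower (SF3A3, SRSF4, SRSF5, HNRNPD). CGCATGCG was found in the promoters of SRSF10 and U2AF1, against 1.87% of all, while those of SRSF1, SRSF9, SRSF11 and HNRNPH1 held none of the 8 motifs in this window. GC content of the promoters had a median of 62.4% for SR proteins, 66% for hnRNPs and 69.6% for SF3 and U2AF, beside 57.6% for all. Over the 30 members it correlated with the number 4 difference at 0.222, a weak relation between genes that share the same arrays.

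Other parts of the splicing machinery were read from 8 lists by role, 139 distinct measured genes in all. With OICR-9429 0 of the 139 passed, with or without the replicate block (limma), as did 0% of all probe sets. With the block 0 had an unadjusted p under 0.05, against 5.55% of all probe sets and 322 of the 10721 above the median level. At number 4, 75 were lower and 20 higher, with a median of -0.40, where 25.5% of all probe sets were lower and 26.3% higher, and 44% and 22.1% of those as bright as the members. SR-related proteins had 15 of 18 lower and 1 higher (median -0.91), among them SREK1 at -2.37 ± 0.16 (SE; limma, adjusted p = 4.04e-05) and SCAF11 at -1.83 ± 0.14 (SE; adjusted p = 5.35e-05). Other splicing regulators had 18 of 29 lower and 2 higher (median -0.60), with TIA1, which promotes U1 binding at weak 5′ splice sites, at -1.93 ± 0.13 (SE; adjusted p = 4.06e-05) and PTBP2 at -1.62 ± 0.12 (SE; adjusted p = 4.45e-05). The list of SR kinases and import factors went both ways, with 6 of 11 lower and 4 higher. SRPK1, the cytoplasmic SR kinase, stood at -1.13 ± 0.11 (SE; adjusted p = 0.00014) and the nuclear kinase CLK3 at 1.34 ± 0.13 (SE; adjusted p = 0.000119).

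**Figure D5:**
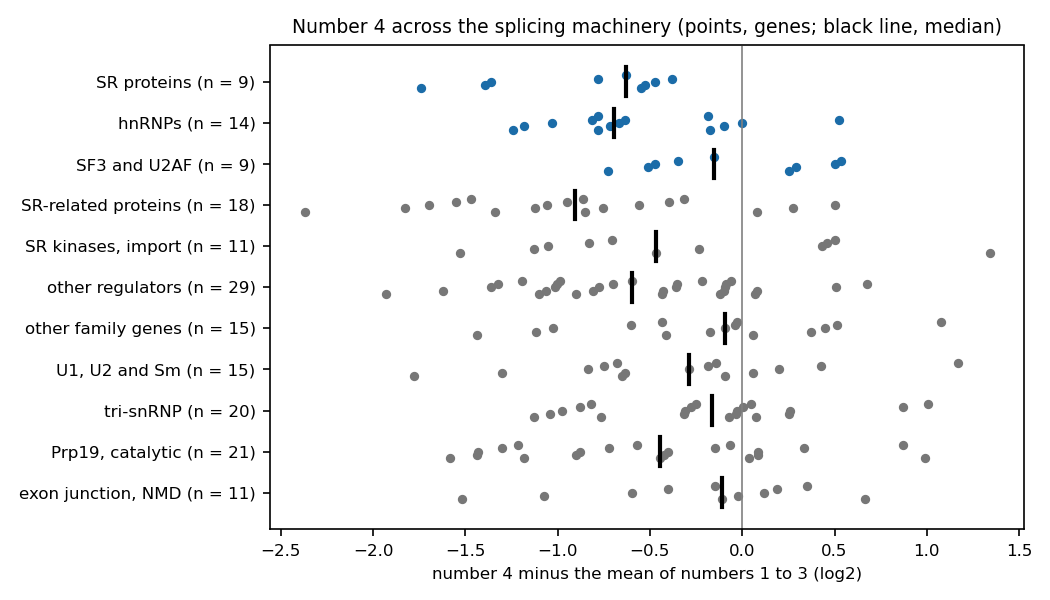
Number 4 minus the mean of numbers 1 to 3 (log2) for each gene of the 3 member groups (blue) and of 8 further splicing lists (grey), with the median of each as a black line. SR-related proteins have the lowest median (-0.91), and other family genes (-0.10) and exon junction genes (-0.11) the medians nearest 0.

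Core snRNP genes had smaller medians. Of probe sets above the median level, 41.6% were lower and 26.3% higher at number 4. The lower shares of the lists that follow, except Prp19, were near or under that. Genes named are the 2 with the smallest number 4 p in each list and do not stand for the list. The U1, U2 and Sm list had 7 of 15 lower and 2 higher at number 4 (median -0.29), with the branch point helicase DDX46 at -1.78 ± 0.14 (SE; limma, adjusted p = 5.22e-05) and DHX15 at -1.30 ± 0.11 (SE; adjusted p = 7.33e-05). Of the tri-snRNP genes 7 of 20 were lower and 2 higher (median -0.16), with SNRNP200, the helicase that unwinds U4 from U6, at -0.98 ± 0.11 (SE; adjusted p = 0.00022) and LSM8 at -1.13 ± 0.11 (SE; adjusted p = 0.000116). Prp19 complex and catalytic step genes had 13 of 21 lower and 3 higher (median -0.44), with CWC22 at -1.58 ± 0.12 (SE; adjusted p = 4.69e-05) and BCAS2 at -1.44 ± 0.12 (SE; adjusted p = 6.98e-05). Exon junction and decay factors had 4 of 11 lower and 2 higher (median -0.11), with UPF2 at -1.52 ± 0.12 (SE; adjusted p = 6.2e-05) and SMG1 at -1.08 ± 0.14 (SE; adjusted p = 0.000491). Relatives of the members outside the list, such as SYNCRIP (-1.44 ± 0.11, SE; adjusted p = 5.11e-05) and U2SURP (-1.12 ± 0.13, SE; adjusted p = 0.000281), had 6 of 15 lower and 4 higher.

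Marker genes of other lineages were read at number 4 against the 26.3% higher and 25.5% lower of all probe sets. Above the median level 41.6% of probe sets were lower, so lower calls were rarer among dim ones, and no share was taken at the markers' own levels. Of 13 measured myeloid markers 7 were higher and 0 lower, with a list mean of 5.55 to 5.64 on the number 4 arrays and 4.93 to 5.25 on the others. The myeloid markers were dim, with mean levels from 3.21 to 7.11. For erythroid and megakaryocyte markers 4 of 10 were higher and 1 lower (5.96 to 6.25 against 5.63 to 5.98). B-cell markers had 2 of 7 higher and 1 lower, NK and cytotoxic markers 3 of 9 higher and 0 lower, and fibroblast and epithelial markers 2 of 11 higher and 1 lower. T-cell markers had 8 of 22 higher and 5 lower, with list means of 8.73 and 8.74 at number 4 inside the range of the others (8.41 to 8.80). The part of these markers in the splicing factor differences was not tested.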

How the data were processed

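Expression was measured in 8 samples of CCRF-CEM cells, 4 untreated and 4 treated. The authors deposited log2 expression values per probe set. RMA, which corrects background, normalizes arrays to each other and summarises probes, is named per the submitters' processing notes, as is the Transcriptome Analysis Console. Versions and genome build: not given in the sources used here. Scanner files were not used here, so scan batch and background were not examined. RMA makes array distributions more alike, though upper quartiles still ran from 8.08 to 8.40 here, so a shift shared by most transcripts cannot be seen.

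Gene symbols came from GEO's platform table (17709 with 1 symbol, 0 with several, 3739 with none). Groups were compared with limma 3.58.1 in R 4.3.3 (lmFit and eBayes, two-sided, Benjamini-Hochberg over all 21448 probe sets, threshold 0.05), without covariates. For replicate numbers, treatment and number entered 1 fit, and contrasts set a number against the average of the rest (3 residual degrees of freedom before moderation). The numbers come from the sample titles. Their deviations correlated at 0.696, 0.748, 0.566 and 0.865 for numbers 1 to 4, which was taken as pairing, and a fit with the replicate block was run. No pair of arrays was identical. The fits were tested on simulated data. Number of arrays limits the precision.

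The members, lists and tests were chosen with earlier results of these data known. Values on every array are given for SRSF1, SRSF3, HNRNPA1, SF3B1, U2AF1 and U2AF2 and, in every group, for 4 members by absolute number 4 difference (top 3 and last) and the 2 with the smallest treatment p with the block; from other splicing lists the 2 with the smallest number 4 p are named. SRSF5, SRSF9 and HNRNPL were given array values after these had been seen. Promoters come from RefSeq (GRCh38.p14). Alternatives covered pairing, variance moderation, a level filter, normalization, probe set choice and left-out arrays and numbers.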

Additional observations from a re-analysis of the deposited data

Results flagged for a closer look

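In 70 groups of 4 arrays (32 members and the 3 group medians, untreated and treated), 14 held 1 array far from the other 3, of which 13 were arrays of number 4. Chance flags about 1 in 20 groups, or 3.5 of 70 if groups were independent, which members on the same arrays are not. The share of all probe sets flagged by this rule was not taken. Of all probe sets, 24.2% had both number 4 arrays below all others and 25.4% above, so number 4 stood apart well beyond the members. The members were chosen knowing that splicing genes were low on an array of number 4.

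Among SR proteins, SRSF10 replicate 4 measured 9.11 untreated (the others 10.51 to 10.55) and 9.23 treated (10.55 to 10.65). SRSF1 replicate 4 measured 10.43 treated (11.67 to 11.85). Among hnRNPs, HNRNPR replicate 4 measured 10.12 untreated (11.10 to 11.14) and 10.15 treated (11.18 to 11.28). HNRNPDL replicate 4 measured 10.40 untreated (11.52 to 11.66) and 10.45 treated (11.57 to 11.71). HNRNPD replicate 4 measured 10.83 untreated (11.43 to 11.55) and 10.80 treated (11.55 to 11.61). HNRNPH1 and HNRNPA2B1 replicate 4 measured 10.98 and 11.13 untreated (11.67 to 11.70 and 11.74 to 11.86). The median deviation of the hnRNPs at replicate 4 was -0.51 untreated (0.09 to 0.14) and -0.54 treated (0.14 to 0.26). The one array of another number was treated replicate 3 for HNRNPF, at 11.79 (11.39 to 11.43). Of the SF3 and U2AF subunits 0 held such an array.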

How the results depend on the processing

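The treatment count of 0 probe sets past the threshold, and of 0 members at an unadjusted p under 0.05, held under every alternative run, the replicate block included (0 and 0), and the block left every member's call as it was. Leaving out single arrays or pairs moved the treatment medians from -0.17 to 0.22 (SR), -0.10 to 0.22 (hnRNP) and -0.079 to 0.068 (SF3 and U2AF); leaving out 1 array breaks a pair, so the numbers are then unbalanced. Single members ranged over SRSF1 -0.32 to 0.36, SRSF3 -0.043 to 0.23, SRSF4 -0.028 to 0.17, SRSF10 -0.26 to 0.43, SRSF11 -0.37 to 0.50, HNRNPC -0.022 to 0.048, HNRNPDL -0.27 to 0.32, HNRNPH1 -0.087 to 0.30, HNRNPH3 -0.26 to 0.36, HNRNPR -0.16 to 0.35, SF3A2 -0.26 to 0.12, SF3B1 -0.14 to 0.26, SF3B3 -0.092 to 0.17, U2AF1 -0.062 to 0.11 (-0.0029 with cyclic loess) and U2AF2 -0.31 to 0.23, with 0 past the threshold. Number 4 counts without single numbers ranged over 19 to 21 members lower and 1 to 4 higher (SR 7 to 8 lower, hnRNP 9 lower, SF3 and U2AF 2 to 5 lower and 0 to 3 higher), with medians of -0.77 to -0.53 (SR) and -0.40 to 0.12 (SF3 and U2AF). SF3A2 ranged from 0.35 to 0.64 there, SRSF4 from -0.44 to -0.29, U2AF1 from -0.40 to -0.31 and U2AF2 from -0.58 to 0.12. Members passing for any difference between numbers ranged from 4 (without number 4) to 25. For number 1, 2 to 11 were higher and 0 to 1 lower, with medians of -0.17 to 0.33 (SR), -0.05 to 0.31 (hnRNP) and 0.088 to 0.29 (SF3 and U2AF). For number 2, 1 to 12 were higher, with medians of -0.018 to 0.45, -0.021 to 0.29 and -0.45 to -0.31. For number 3, 0 to 11 were higher, with medians of 0.19 to 0.58, 0.091 to 0.38 and 0.093 to 0.23. Trend and robust variance gave 16 higher and 2 lower at number 1, 15 and 10 at number 2, 18 higher at number 3 and 5 higher at number 4 (4 of them SF3 and U2AF). The filter to probe sets above the median level gave 1 lower at number 1, 12 higher at number 2, 13 higher at number 3 and 5 higher at number 4 (4 SF3 and U2AF). Quantile normalization gave 4 higher at number 1 (medians 0.094 SR, 0.17 SF3 and U2AF), a hnRNP median of 0.22 at number 2, an SR median of 0.30 at number 3, and at number 4 5 higher, with 2 lower and 4 higher among SF3 and U2AF and medians of -0.51 (SR) and 0.014 (SF3 and U2AF). HNRNPA0 and U2AF2 turned to 0.087 and 0.014 there. Cyclic loess gave 3 higher at number 1 (medians 0.058, 0.076 and 0.10 for SR, hnRNP, and SF3 and U2AF), medians of 0.26, 0.16 and 0.028 at number 3, and at number 4 5 higher, with 1 lower and 4 higher among SF3 and U2AF and medians of -0.40, -0.50 and 0.10. HNRNPA0 and U2AF2 turned to 0.16 and 0.10. Centring arrays on their median moved the hnRNP and the SF3 and U2AF medians at number 1 to 0.21 and 0.25 and the hnRNP median at number 2 to 0.15. Causes of these moves were not tested. Signal over background is unknown, and 4 arrays per group limit what can be seen.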
